A study of Mus musculus with 8 samples.

Results

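The cytosolic ribosomal protein genes were measured in glomeruli of mice with and without the tetraspanin gene Cd151. They were chosen by the listed symbol of each row of the signal table, a row being 1 probe: Rpl or Rps with a number and at most a short suffix, Rplp0 to Rplp2, Rpsa and Fau, without the Rps6k kinase genes. These symbols gave 63 genes on 78 rows, of 18120 genes on 25697 rows. Of them, 58 genes on 67 rows passed the detection limit (a p-value no higher than 0.05) on 1 or more arrays and were tested, of 11240 genes on 14967 rows. By subunit, 26 of 27 listed 40S genes, 29 of 32 listed 60S genes, 1 of 2 genes of the 60S stalk and both listed paralogs, Rps27l and Rpl3l, were tested, and 55 of the 58 genes were detected on all 8 arrays.

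The study asked which glomerular transcripts differ when CD151, a membrane partner of laminin-binding integrins, is absent, at an age before scarring. Its groups were 4 Cd151+/+ and 4 Cd151-/- mice, all male FVB/N mice of 3 weeks, with 1 mouse on each Illumina MouseRef-8 v1.1 array. Glomeruli were collected on magnets after magnetic beads had been perfused through the heart, so each sample mixed podocytes, endothelial and mesangial cells with whatever tubule was carried over. In such mixed samples fewer cells of a type and less RNA per cell cannot be told apart.

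The cytosolic ribosome joins a small 40S subunit, which reads the messenger RNA, to a large 60S subunit, which forms the peptide bonds, and each subunit holds a single copy of most of its proteins. Ribosomal protein genes are transcribed at high levels in nearly all cells, and their messenger RNAs typically begin with a C followed by a run of pyrimidines, the terminal oligopyrimidine tract, through which growth signals acting by mTORC1 set their translation. Because subunits are built from equal numbers of proteins, the transcripts are usually kept in balance with each other.

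The starts of 9 members named below are shown. They include the members past an unadjusted p of 0.05 in either fit and the member that varied most between arrays. The others are Fau and Rps6 of the 40S subunit and Rps27, the parent gene of the paralog Rps27l. Each sequence gives the 20 bases before and the 20 bases from the annotated start on, 5′ to 3′, from RefSeq with positions in GRCm38.p6. Capitals mark a C within 5 bases of the start and the pyrimidines that follow it, at least 4. The rule does not look at the bases before that C, and in Rpl7a the pyrimidines continue unbroken before the capitals. In 6 of the 9 such a run was present.
Fau, chr19:6057927-6057966, + strand: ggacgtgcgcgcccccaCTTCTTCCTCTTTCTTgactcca
Rps6, chr4:86857348-86857387, - strand: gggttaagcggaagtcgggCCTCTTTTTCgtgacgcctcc
Rps27, chr3:90213629-90213668, - strand: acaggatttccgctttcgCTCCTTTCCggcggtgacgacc
Rps27l, chr9:66946066-66946105, + strand: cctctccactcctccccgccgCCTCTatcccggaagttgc
Rpl7a, chr2:26910787-26910826, + strand: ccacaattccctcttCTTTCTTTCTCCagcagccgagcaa
Rpl27a, chr7:109519175-109519214, + strand: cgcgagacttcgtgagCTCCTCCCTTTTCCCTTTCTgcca
In the other 3, no such run began within those bases of the listed start.
Rpl22, chr4:152325706-152325745, + strand: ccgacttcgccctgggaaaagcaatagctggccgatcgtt
Rpl5, chr5:107900508-107900547, + strand: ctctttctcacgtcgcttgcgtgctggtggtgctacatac
Rpl4, chr9:64173367-64173406, + strand: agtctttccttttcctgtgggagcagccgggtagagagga
Promoter entries were at hand for 49 of the 63 members, 62 members having been matched by current symbol and 1 by a synonym. The run was found at a start of 25 of the 49 genes (51.0%), against 21.2% of all 27025 genes with an entry. The motif CCGGAAG, the core bound by ETS factors, was present on either strand within 250 bases before and 50 bases after the start in 19 of the 49 (38.8%), against 9.93% of all genes. These matches describe letters in a window and not a bound site.

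The deleted gene followed the labels on every array: all 3 probes for Cd151 were above background in 4 of 4 wild-type mice and in 0 of 4 mice without the gene, and the brightest was at 14.37 ± 0.24 against 4.57 ± 0.08 (log2 signal, SD, n = 4 each; limma, adjusted p = 6.51e-10). The arrays fell into 2 sets by background, the brightness of probes that bind nothing. It lay between 59.0 and 69.5 on 4 arrays, called here the lower set (mice 1 and 2 of the Cd151+/+ group, mice 3 and 4 of the Cd151-/- group), and between 123 and 135 on the other 4, the higher set (mice 3 and 4 of the Cd151+/+ group, mice 1 and 2 of the Cd151-/- group). The sources used here give no reason for the split, which crosses the genotypes 2 against 2, and between 64 and 67 of the 78 ribosomal protein rows were detected per array. Among marker lists, all 10 proximal tubule genes were higher in Cd151-/- mice (median log2 difference 0.63, 2 with an unadjusted limma p under 0.05). All 5 tested podocyte genes were lower (median -0.19, none under 0.05), as were all 5 tested erythroid genes (median -0.69, 3 under 0.05). Of all genes tested, 49.7% were higher. At an unadjusted limma p under 0.05, 1.90% of all genes were higher and 2.47% lower. The summed signal of the proximal tubule list lay between 17294 and 49884 in the Cd151+/+ group and between 31856 and 60510 in the Cd151-/- group, and that of the podocyte list between 56932 and 61175 and between 46722 and 62103. The part of cell makeup in the values below was not tested.

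Transcript levels of the ribosomal protein genes differed little between genotypes. Of the 58 genes, 25 were higher and 33 lower in Cd151-/- mice, with a median log2 difference of -0.03 beside -0.0018 over all genes tested, and the differences of 57 of the 58 lay within 0.5 of 0. The median was 0.075 with cubic spline normalisation, beside 0.0035 over all genes, and between -0.07 and 0.08 when 1 mouse was left out, so its sign was not settled. The 26 genes of the 40S subunit, which include the decoding proteins and the S6 kinase substrate Rps6, were higher in 7 and lower in 19 (median -0.05). The 30 genes of the 60S subunit and stalk were higher in 17 and lower in 13 (median 0.05). The same log2 scale, Cd151-/- minus Cd151+/+, is used for every genotype difference below.

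None of the 58 genes passed Benjamini-Hochberg adjustment in limma (lowest adjusted p = 0.918), as against 0.0267% of all genes. At an unadjusted p under 0.05 there were 0 higher members, beside 1.90% of all genes, and 1 lower member, Rpl22, beside 2.47% of all genes. In 0 of the 58 did the 4 Cd151-/- values lie entirely to one side of the 4 Cd151+/+ values, where 2.27% of all genes did so. The 95% confidence interval of the difference stayed within 1 log2 unit of 0 in 44 of the 58 genes, and in 57 once the set of arrays was fitted as a block, so that for most members a doubling or halving lay outside the interval.

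**Figure D1:**
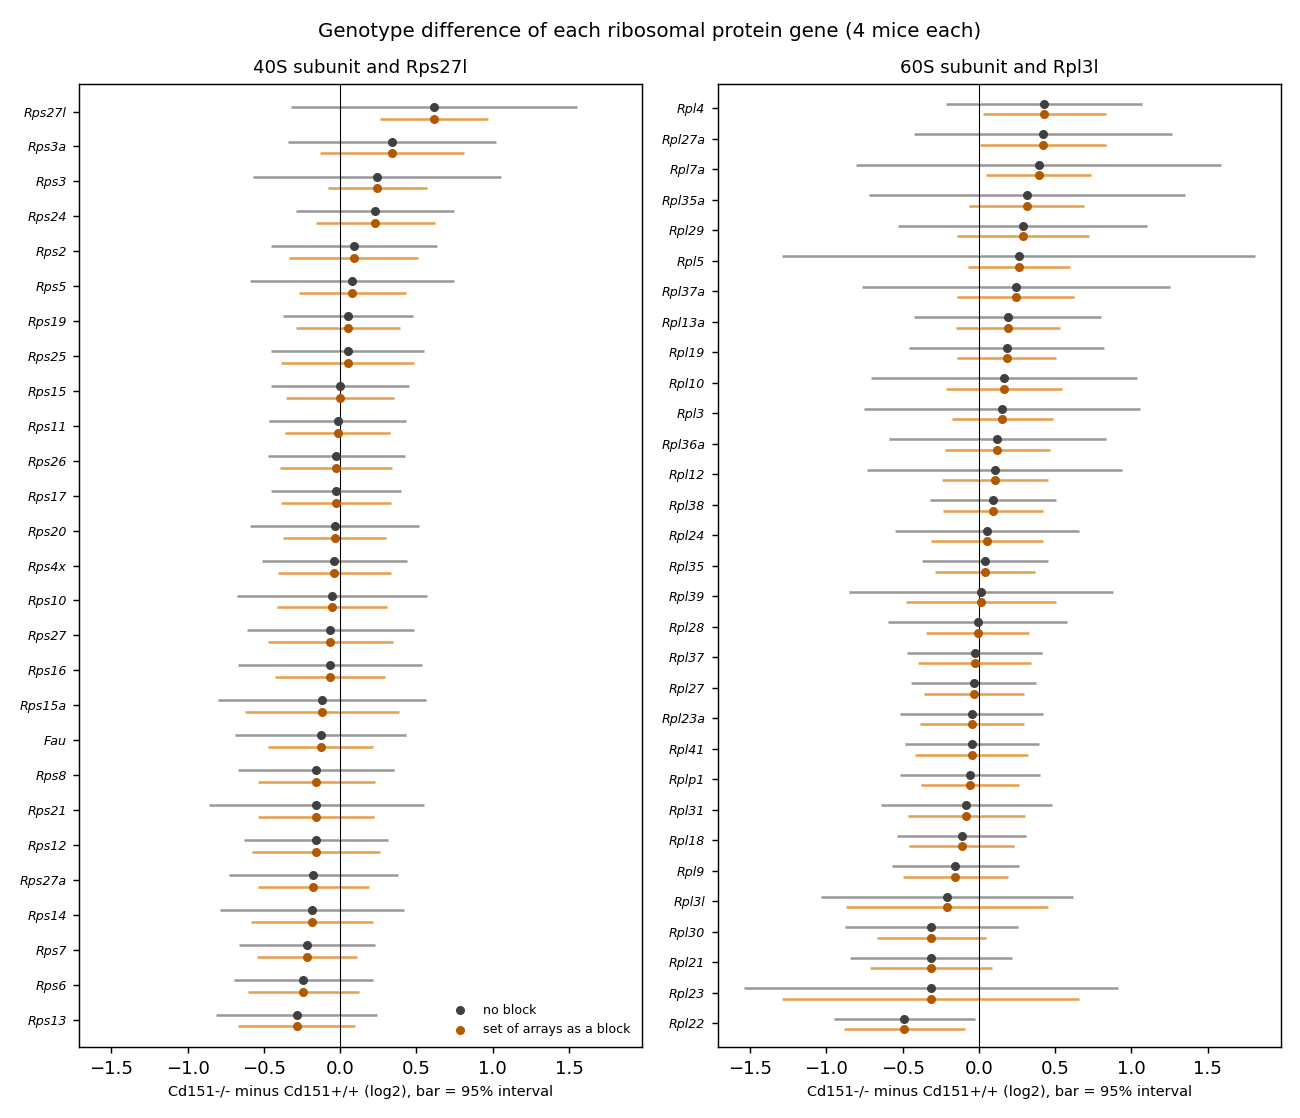
Genotype difference of each of the 58 tested ribosomal protein genes (x axis, log2 of Cd151-/- over Cd151+/+, 4 mice each), with points for the estimate and bars for its 95% confidence interval, without (grey) and with (orange) array set as a block. The grey interval excludes 0 for Rpl22 alone, and the orange bars are shorter, with a median half-width of 0.36 against 0.56.

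Rpl22, an RNA-binding protein of the 60S subunit that mice can live without, had the largest deficit among the members. Its normalised log2 signals were 11.45, 11.46, 11.23 and 11.51 in Cd151+/+ mice 1 to 4 and 10.91, 10.78, 11.30 and 10.70 in Cd151-/- mice 1 to 4. Cd151-/- mouse 3 lay above Cd151+/+ mouse 3, and the other Cd151-/- mice lay below all Cd151+/+ mice. The difference was -0.49 (95% confidence interval -0.95 to -0.03; limma p = 0.0400, adjusted p = 0.918), a ratio of 0.713, and the two-sided exact permutation test gave p = 0.0571, where the smallest p its 70 relabelings allow is 0.0286. The difference was -0.45 within the lower set and -0.53 within the higher set of arrays. When 1 mouse was left out, the difference stayed between -0.62 and -0.41, but the unadjusted p remained under 0.05 in only 2 of 8 such fits, those without mouse 3 of either genotype. With the set as a block the limma p was 0.0212 (adjusted p = 0.393), and it was under 0.05 in 5 of 8 fits that left out 1 mouse.

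Rps27l, a paralog of the 40S protein Rps27 that p53 is known to induce, had the largest excess among them. Its log2 signals were 9.88, 9.96, 11.17 and 11.31 in Cd151+/+ mice 1 to 4 and 11.76, 11.82, 10.40 and 10.80 in Cd151-/- mice 1 to 4. Across all mice the genotypes overlapped, yet within each set of arrays both Cd151-/- values exceeded both Cd151+/+ values. The difference was 0.61 (-0.32 to 1.55; two-sided exact permutation p = 0.257, limma adjusted p = 0.918), or 0.68 within the lower and 0.55 within the higher set. With the set as a block the interval narrowed to 0.26 to 0.97 (limma adjusted p = 0.349). The unadjusted p of that fit was under 0.05 also in each of the 8 fits that left out 1 mouse. Without the block it was under 0.05 in 0 of 8 such fits (limma p from 0.0651 to 0.405). Its parent Rps27, a 40S zinc-finger protein, differed by -0.06 (-0.61 to 0.48).

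The muscle paralog Rpl3l was dim. Its log2 signals were 6.42, 6.37, 5.87 and 5.73 in Cd151+/+ mice and 5.69, 5.23, 5.57 and 7.08 in Cd151-/- mice 1 to 4, of which 4 and 3 were detected. Cd151-/- mouse 4 was the highest of all mice and Cd151-/- mouse 2 the lowest. The difference was -0.21 (-1.03 to 0.62), and -0.62 without Cd151-/- mouse 4, where the unadjusted limma p was under 0.05.

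Among the 40S proteins, Rps6, the substrate of the S6 kinases, had log2 signals of 13.53, 13.57, 13.39 and 13.39 in Cd151+/+ and 12.98, 13.16, 13.60 and 13.16 in Cd151-/- mice 1 to 4. As with Rpl22, Cd151-/- mouse 3 was the exception, here the highest of all 8, and the difference was -0.24 (-0.70 to 0.21; two-sided exact permutation p = 0.143). Rps19, mutated in Diamond-Blackfan anaemia, stood at 14.20 ± 0.06 and 14.25 ± 0.18 (SD, n = 4 each), a difference of 0.05 (-0.37 to 0.48). Rps27a and Fau are each made as a fusion, Rps27a behind ubiquitin and the Fau ribosomal protein behind a ubiquitin-like domain. Rps27a measured 10.57, 10.58, 10.39 and 10.13 in Cd151+/+ and 9.92, 9.83, 10.62 and 10.60 in Cd151-/- mice. Fau measured 14.07, 14.11, 13.70 and 13.59 in Cd151+/+ and 13.37, 13.42, 14.22 and 13.95 in Cd151-/- mice. In both fusion genes the higher-set mice of either genotype lay below the lower-set mice, and the genotype differences were -0.18 (-0.73 to 0.38) and -0.13 (-0.69 to 0.43).

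Among the 60S proteins, Rpl5 carries 5S ribosomal RNA into the subunit and, when free, binds Mdm2. Its log2 signals were 9.20, 9.28, 11.56 and 11.39 in Cd151+/+ mice 1 to 4 and 11.61, 11.86, 9.51 and 9.47 in Cd151-/- mice 1 to 4. Values of the 2 sets of arrays did not come near each other, while the genotypes overlapped. The genotype difference was 0.26 (-1.29 to 1.81), and 0.26 within each set. Rplp1, an acidic protein of the stalk that recruits elongation factors, measured 15.31, 15.36, 14.94 and 15.02 in Cd151+/+ and 14.94, 14.92, 15.33 and 15.21 in Cd151-/- mice, a difference of -0.06 (-0.52 to 0.40).

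For 5 members no level could be given. No probe of Rpl14, Rpl17, Rpl6, Rps23 or the second stalk protein Rplp2 was detected on any array, with signals at most 1.20 times the background, and 6 further rows of Rpl23, Rpl27a, Rpl37, Rpl4 and Rps27a were likewise not detected although other probes of those genes were. In gene order Rplp2 is separated from Cd151 by 2 protein-coding genes, the next nearest member being Rps15a with 338 between. Rpsa and Rplp0 were listed under the older symbols Lamr1 and Arbp and so lay outside the rule, and their values are given with the other translation genes.

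The ribosomal protein genes varied more with the set of arrays than with genotype. The median size of the set difference (higher minus lower background, log2) was 0.56 against 0.14 for the genotype difference, where all genes gave 0.37 and 0.21, and the set difference was the larger of the pair in 53 of the 58 members (91.4%) against 69.1% of all genes. The values of the sets did not overlap in 32 members (55.2%), against 24.7% of all genes. In 27 of them (46.6%) the higher set was above, beside 12.7% of all genes, and in 5 (8.62%) it was below, beside 12.1% of all genes. The median set difference was 0.41 over the members and -0.06 over all genes. As the sets were formed from the array backgrounds and the split was known from earlier results, these are descriptions with no test.

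**Figure D2:**
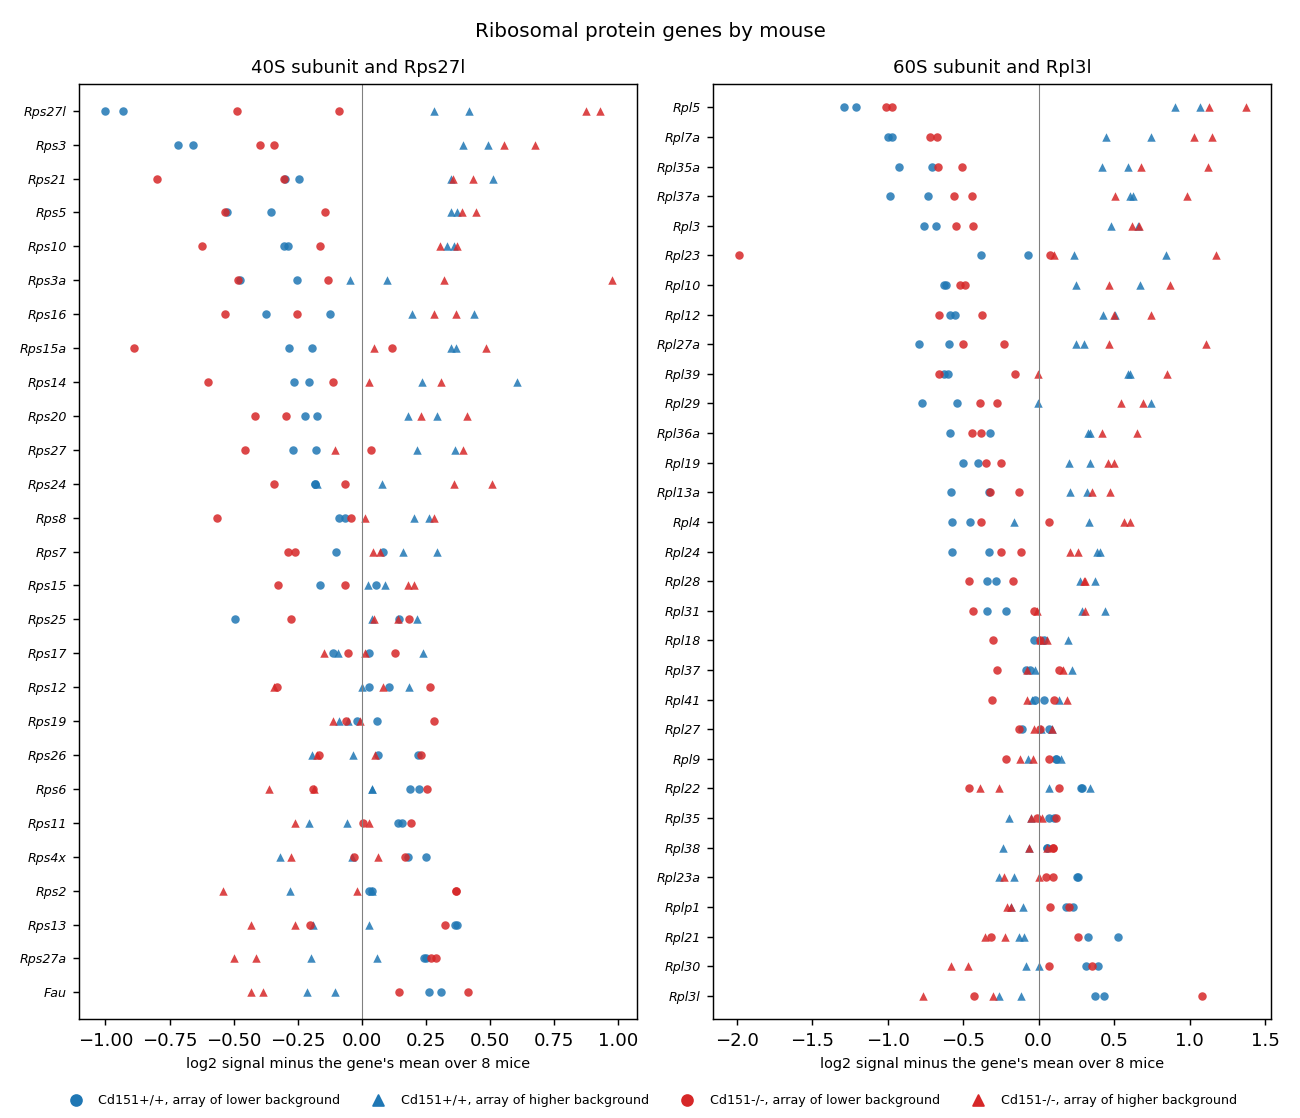
Log2 signal of each mouse minus the gene's mean over the 8 mice (x axis) for each of the 58 genes (y axis, ordered by set difference), with colour for genotype and circles or triangles for arrays of lower or higher background. From Rpl5 and Rps27l at the top, circles and triangles lie apart with the triangles higher. Towards the bottom, for Fau and Rpl30, they lie apart with the triangles lower. Below Rpl30, in the lowest row of its panel, Rpl3l has circles and triangles that overlap.

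Rpl5 led with a set difference of 2.24, followed by Rpl7a at 1.68, Rpl35a at 1.41, Rpl37a at 1.36, Rps27l at 1.25 and Rpl3, which reaches towards the peptidyl transferase centre, at 1.21. All but Rps27l are 60S genes. At the other end, the higher set was below the lower set without overlap for Fau and Rpl30 at -0.57 each, Rps27a at -0.53 and Rplp1 at -0.34, with Rpl23a at -0.33, and the dim Rpl3l had the lowest value, -0.73, with overlap. The 40S genes had a median set difference of 0.27, with 9 higher and 2 lower without overlap, and the 60S genes with the stalk one of 0.65, with 17 higher and 3 lower. Signal strength moved with these values: the 29 members of lower mean signal had a median set difference of 0.69, 19 higher and 2 lower without overlap, and the 29 of higher mean signal one of 0.0033, with 8 higher and 3 lower. The part of signal strength in the set difference was not tested. With scaling to the 75th percentile in place of quantile normalisation, the median set difference of all genes moved to -0.40 and that of the members to 0.13. In that setting 22 members (37.9%) were higher and 17 (29.3%) lower without overlap, beside 7.39% and 34% of all genes. With cubic spline normalisation 34 members (58.6%) were higher and 3 (5.17%) lower, beside 11.9% and 11.3% of all genes.

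**Figure D3:**
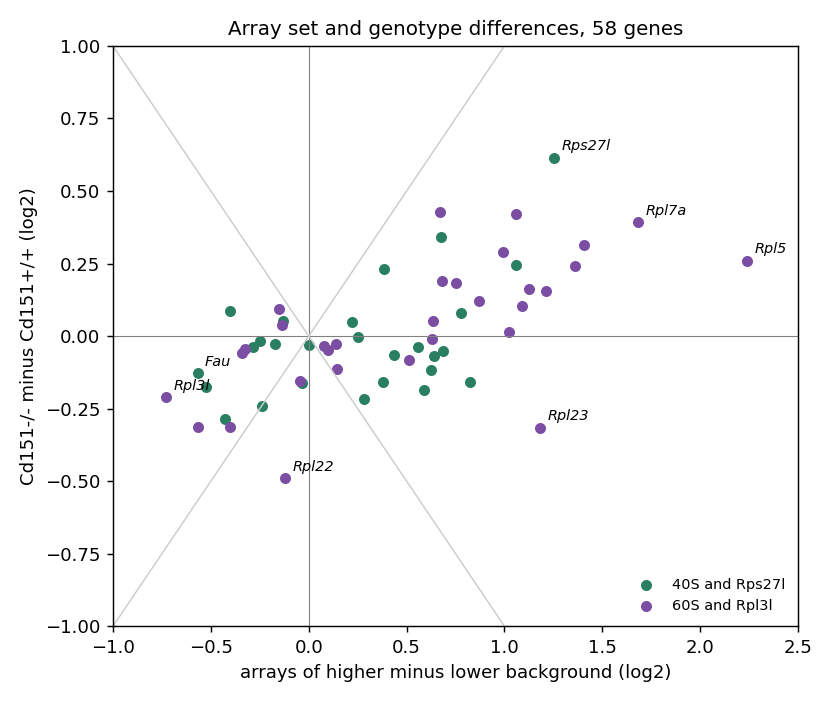
Difference between sets of arrays (x axis, log2, higher minus lower background) against genotype difference (y axis, log2, Cd151-/- minus Cd151+/+) for the 58 genes, green for 40S genes and Rps27l and purple for 60S genes and Rpl3l. Grey diagonals mark equal size, and 53 genes lie to the left or right of them with the larger set difference, while Rpl22 lies below them.

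Fitting the set of arrays as a block left each genotype difference as it was and narrowed its interval. At an unadjusted p under 0.05 there were then 4 higher members, Rps27l and the 60S genes Rpl7a, Rpl4 and Rpl27a, beside 5.21% of all genes, and 1 lower member, Rpl22, beside 5.63% of all genes. The 4 higher members are 6.90% and the lower one 1.72% of the 58, the first near and the second under the share of all genes, and no member passed adjustment in limma (lowest adjusted p = 0.349). Rpl7a, Rpl4 and Rpl27a were singled out after their values were seen. Rpl7a measured 8.36, 8.38, 10.10 and 9.80 in Cd151+/+ and 10.39, 10.50, 8.63 and 8.68 in Cd151-/- mice 1 to 4. Rpl4, which lines the exit tunnel of the nascent peptide, measured 8.11, 8.23, 9.02 and 8.52 and then 9.29, 9.25, 8.30 and 8.75. Rpl27a measured 7.68, 7.48, 8.53 and 8.58 and then 8.74, 9.38, 7.78 and 8.05. In all 3 genes both Cd151-/- values were above both Cd151+/+ values within each set, by 0.29 and 0.49 for Rpl7a, 0.36 and 0.50 for Rpl4, and 0.33 and 0.51 for Rpl27a in the lower and higher set. When 1 mouse was left out of this fit, between 1 and 4 members were higher and between 0 and 2 lower at an unadjusted p under 0.05. The count fell to 1 higher member without Cd151+/+ mouse 1, 2 or 4 or without Cd151-/- mouse 2.

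Within both sets of arrays, the genotypes lay apart in the same direction in 13 of the 58 members (22.4%), beside 11.6% of all genes. Of these, 9 were higher in Cd151-/- mice, namely Rpl13a, Rpl19, Rpl27a, Rpl35a, Rpl4, Rpl5, Rpl7a, Rps27l and Rps3. The other 4 were lower, namely Rpl21, Rpl22, Rps13 and Rps7. Of all 11240 genes tested, 587 were apart higher and 721 lower. With 2 mice against 2 in each set these are counts and were not tested. The sign of the difference was shared by both sets in 39 members (67.2%) and in 60.9% of all genes. The 9 higher genes had differences from 0.18 to 0.61 and the 4 lower ones from -0.49 to -0.22. The proximal tubule list had a median difference of 1.37 in the lower and of 0.07 in the higher set, and the podocyte list one of -0.35 and -0.27.

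**Figure D4:**
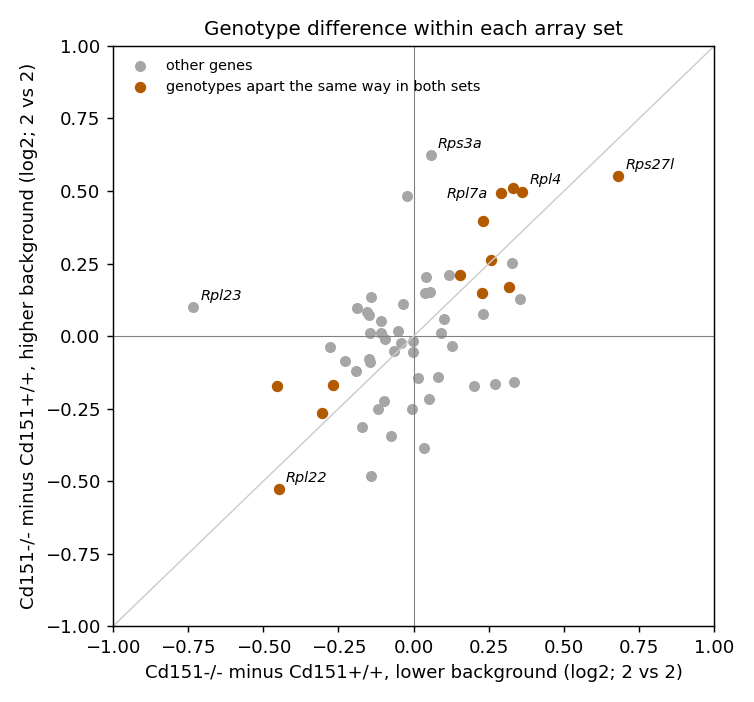
Genotype difference of the 58 genes (log2, Cd151-/- minus Cd151+/+) within the 4 arrays of lower background (x axis) and within the 4 arrays of higher background (y axis), 2 mice against 2 in each. Orange points are the 13 genes whose genotypes lay apart the same way in both sets, with Rps27l at 0.68 and 0.55 and Rpl22 at -0.45 and -0.53, and the grey diagonal marks equal differences.

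Probes of 1 gene could be compared for 8 members, each probe tested on its own. All probes of a gene had a genotype difference of 1 sign in 6 of the 8, and the exceptions were Rpl23 and Rpl31. Rpl23, a 60S protein that can also bind Mdm2, had 3 tested probes. The brightest measured 13.37, 13.06, 14.28 and 13.68 in Cd151+/+ and 13.54, 14.62, 13.51 and 11.45 in Cd151-/- mice 1 to 4. Its low value in Cd151-/- mouse 4 was not shared by the second probe, at 11.37, 11.39, 12.68 and 12.77 and then 12.59, 12.79, 11.91 and 11.94, nor by the third, at 8.48, 8.41, 8.97 and 9.22 and then 9.33, 9.39, 8.78 and 8.93. The differences were -0.32 (-1.54 to 0.91), 0.26 (-0.58 to 1.09) and 0.34 (-0.22 to 0.90), and without Cd151-/- mouse 4 the brightest probe gave 0.29.

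For Rps19 the brightest probe differed by 0.05 and a dim one, detected in 2 Cd151+/+ and 4 Cd151-/- mice, by 0.70 (-0.03 to 1.43; two-sided exact permutation p = 0.114, limma adjusted p = 0.918). The dim probe was highest in Cd151-/- mice 3 and 4, at 6.35 and 6.86, where the other 6 mice lay between 5.00 and 5.68. Rps24, another Diamond-Blackfan gene, differed by 0.23 (-0.29 to 0.75) at its brightest probe and by 0.52 (-0.29 to 1.32) at a dim probe detected in 2 mice of each genotype. Both Rps24 probes were highest in Cd151-/- mice 1 and 2, at 14.59 and 14.74 and at 6.38 and 6.25. For Rpl21 the differences were -0.31 and -0.07, and for Rpl31 -0.08 and 0.08. The remaining 3 genes, Rpl29, Rps3 and Rpl38, had probes within 0.14, 0.08 and 0.0097 of each other. Between sets of arrays the probes of a gene moved in 1 direction in 6 of 8, the exceptions being Rpl31 (0.51 and -0.22) and Rpl29 (0.99 and -0.25).

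**Figure D5:**
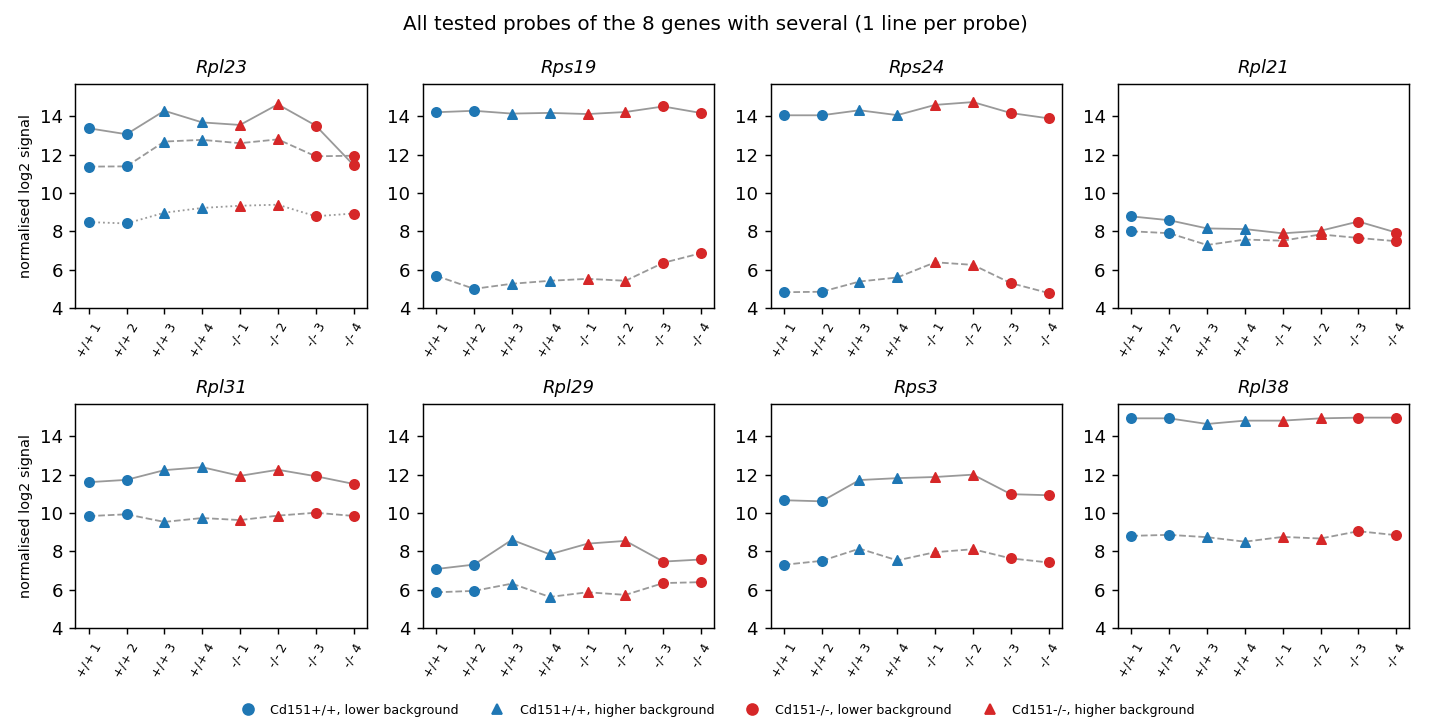
Normalised log2 signal (y axis) of each tested probe (1 line each) of the 8 genes with several, by mouse (x axis), with colour for genotype and circles or triangles for arrays of lower or higher background. The solid line is the brightest probe, and for Rpl23 only that line drops in Cd151-/- mouse 4, to 11.45.

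Summed over all 78 rows, the ribosomal protein probes took 4.07, 3.89, 4.21 and 4.04% of the background-corrected signal in Cd151+/+ mice 1 to 4 and 3.78, 4.01, 4.32 and 3.59% in Cd151-/- mice 1 to 4. The shares overlapped, with means of 4.05 ± 0.13% and 3.92 ± 0.31% (SD, n = 4 each), and with 4.01 ± 0.18% in the higher and 3.97 ± 0.31% in the lower set. Counted by gene, 23, 21, 42 and 39 of the 58 members were above their own mean over the 8 mice in Cd151+/+ mice 1 to 4, and 33, 44, 27 and 10 in Cd151-/- mice 1 to 4. Cd151-/- mouse 4 thus had the fewest members above their mean and the smallest share, and the next smallest share was in Cd151-/- mouse 1, of the other set.

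The members were also set out by whether a C within 5 bases of the listed start opened such a run, as a description with no test. The 22 tested members with the run had a median genotype difference of 0.026 and a median set difference of 0.63, and the 23 tested members with an entry and no run had -0.03 and 0.25. Of the members shown above, Rps27l, Rpl7a and Rpl27a with the run and Rpl4 without it were higher with the set as a block at an unadjusted p under 0.05, and Rpl22, without it, was lower. Fau had a run of 16 bases and a set difference of -0.57, and Rpl27a a run of 20 bases and one of 1.06. Rpl5 had no run beginning within those 5 bases and the highest set difference. The windows of Rpl5 and Rpl4 hold pyrimidine stretches further before the listed start, which the rule does not count. In Rpl7a such a stretch runs on into the counted bases.

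Other genes of translation were read in the same fit. Of all genes tested, 49.7% were higher. At an unadjusted p under 0.05, 1.90% of all genes were higher and 2.47% lower without the block, and 5.21% and 5.63% with it. Of 65 tested mitochondrial ribosomal protein genes, which build the separate ribosome of mitochondria, 51 were higher and 14 lower (median 0.18). At an unadjusted p of 0.05, 0 passed without and 5, all higher, with array set as a block. The genotypes did not overlap in 2, Mrpl33 and Mrpl45, both higher, beside 2.27% of all genes. Mrpl45 was detected in 0 Cd151+/+ and 1 Cd151-/- mice, and the paper lists Mrpl33 as up-regulated. Within both sets of arrays 14 genes were apart higher and 1 lower. Of all 11240 genes tested, 587 were apart higher and 721 lower, together 11.6%. Mrpl52 had the lowest p of the mitochondrial genes that were higher, with a difference of 1.09 (-0.06 to 2.23), and Mrps25 of those lower, with -0.26 (-0.76 to 0.24). Mrpl52 was dim, detected in 2 Cd151+/+ and 4 Cd151-/- mice. Of 26 genes of ribosome biogenesis 18 were higher and 8 lower (median 0.14), with 0 past an unadjusted p of 0.05 without and 4 higher and 1 lower with the block. Myc, which drives transcription of ribosome genes, differed by 0.49 (-0.03 to 1.02) but was detected in 0 Cd151+/+ and 2 Cd151-/- mice, and Tex10, which acts in 60S maturation, by -0.39 (-0.84 to 0.05). Of 30 initiation genes 17 were higher and 13 lower (median 0.01), with Eif1a at 0.38 and the poly(A)-binding Pabpc1 at -0.38, and 0 passed an unadjusted p of 0.05 without and 1, Eif1a, with the block.

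Of 8 elongation genes 1 was higher and 7 lower (median -0.07). At an unadjusted p of 0.05, 1 passed without the block, lower, beside 2.47% of all genes. With the block 3 passed, Eef1e1 higher, beside 5.21% of all genes, and Eef2 and Eef1b2 lower, beside 5.63%. Eef1b2 was named after its value was seen. The gene past that p in both fits was Eef2, the factor that moves the ribosome along by a codon. Its log2 signals were 11.47, 10.74, 11.38 and 11.35 in Cd151+/+ and 10.71, 10.31, 10.73 and 10.46 in Cd151-/- mice 1 to 4. The genotypes did not overlap, Cd151+/+ mouse 2 lying just above the highest Cd151-/- mouse. The difference was -0.69 (-1.20 to -0.18; limma p = 0.0127, adjusted p = 0.918), and the two-sided exact permutation test gave 0.0286, the smallest p possible here. Eef1e1, an accessory protein of tRNA synthetases, was the higher one at 0.66 (-0.26 to 1.59). Of the ribosomal proteins listed under other symbols, Arbp, the stalk base protein Rplp0, differed by 0.67 (-0.20 to 1.53 without and 0.23 to 1.11 with the block, limma adjusted p = 0.918 and 0.356), Lamr1, the 40S protein Rpsa, by 0.16, and Rpl36al by -0.14, with Lamr1 detected in 0 Cd151+/+ and 1 Cd151-/- mice. Arbp was dim as well, detected in 3 Cd151+/+ and 4 Cd151-/- mice, and both Cd151-/- values were above both Cd151+/+ values in each set, by 0.79 in the lower and 0.54 in the higher. No gene of these lists passed adjustment in limma without or with the block.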

How the data were processed

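Glomerular RNA of 8 mice was amplified, biotin-labelled and hybridised to 1 array per mouse. The authors deposited a table of signal intensity per probe, neither background-subtracted nor normalised, and a detection p-value per probe and array. In Genome Studio they applied cubic spline normalisation and a detection filter. They listed genes at a p under 0.05 with a signal filter of 50, and they also used SAM, gene set enrichment and pathway analysis. Here the deposited values were processed in R 4.3.3 with limma 3.58.1: background inferred from detection p-values, neqc (offset 16, quantile normalisation), probes detected at 0.05 or lower on at least 1 array, then lmFit and eBayes with Benjamini-Hochberg adjustment over all tested probes. Of several probes of a gene the brightest by mean stood for it. Figures and sequence windows were made with Python 3.11.15. SAM was not run. The fit was tested on simulated data.

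Groups came from the labels. Members, gene lists and tests were chosen with earlier results of these data known. Members were named with values if past an unadjusted p of 0.05, if fixed by name (Rpsa, Rplp0 to Rplp2, Rps6, Rpl5, Rpl11, Rps19, Rpl22, Rps27a, Fau and paralogs) or if among the 4 genes whose probes differed most. Of each other translation list the lowest p in each direction was named. Rpl11, Rpl10l, Rpl22l1, Rpl39l and Rpl7l1 were not among the listed symbols. Other marker lists, tested in the same fit with no gene past adjustment, gave median differences of -0.39 (glomerular endothelium), -0.28 (mesangium and smooth muscle), -0.18 (loop, distal and collecting duct) and -0.0025 (leukocyte). Alternatives were another background correction, offset, normalisation, filter, variance model, array weights, probe rule, blocks by mouse number or set of arrays, and leaving out each mouse. Nothing in the labels tells whether the mice shared litters or extraction days, and the number of arrays limits the precision.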

Additional observations from a re-analysis of the deposited data

Results flagged for a closer look

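Of 116 sets of 4 values (58 members in 2 genotypes), 4 held a mouse that stood apart from the other 3 of its genotype by Dixon's test. Chance gives about 1 in 20 for 4 values of 1 distribution. Each genotype held arrays of both lower and higher background, so that rate need not hold here. Rpl18 was at 13.29 (log2 signal) in Cd151-/- mouse 4, against 13.60 to 13.65 in the other 3. Rpl9 was at 14.71 in Cd151+/+ mouse 3, against 14.89 to 14.92. Rps2 was at 14.02 in Cd151+/+ mouse 4, against 14.33 to 14.34. Rps24 was at 14.31 in Cd151+/+ mouse 3, against 14.05 to 14.06.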

How the results depend on the processing

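In none of the settings tried did a ribosomal protein gene pass adjustment in limma. At an unadjusted p under 0.05, 0 members were higher and 1 lower as reported. The lower count was 0 with scaling to the 75th percentile. With limma array weights 16 members (27.6%) were higher and 6 (10.3%) lower, beside 15.4% and 16.4% of all genes. These weights were 1.73 and 1.89 for the lower-set Cd151+/+ mice and 2.79 and 1.35 for the higher-set Cd151-/- mice but 0.47 to 0.61 for the other 4, so that the weighted genotype difference takes in the set difference. With them Rpl5 moved from 0.26 to 1.49 and Rps27l from 0.61 to 1.31, and these and Rpl21, Rps6, Rps24 and Rps27a came under an unadjusted p of 0.05. The median difference was -0.03 as reported, 0.15 with array weights, 0.075 with cubic spline normalisation and -0.07 to 0.08 with 1 mouse left out. The members' median deviation from their own means had a pooled SD of 0.23 between mice of a genotype. This SD takes in the set split, with mean deviations of 0.19 in the higher and -0.17 in the lower set, and is not the error of a median difference. With array set as a block 4 were higher. Correlations of deviations between mice of the same number were -0.58, -0.40, -0.53 and -0.00856 for numbers 1 to 4. Each number joined a lower-set and a higher-set array, so these values cannot tell whether mouse numbers paired the mice. With the mouse number as a replicate block 0 members were higher and 0 lower. Rpl22 then had p = 0.103 in limma, and the two-sided exact permutation test without a block gave p = 0.0571. Leaving out 1 mouse gave 0 higher and 0 to 1 lower, and with the set as a block 1, 2, 3 or 4 higher and 0 to 2 lower; this last analysis, and that of the set difference under each normalisation, were chosen after seeing the data. The sign turned for Rplp1 with cubic spline normalisation (0.055), for Rpl23 with array weights (0.23) and with the mean of its probes (0.094), and for Rps19 with array weights (-0.041), while the mean of its probes moved Rps19 to 0.38. Leaving out 1 mouse gave -0.77 to 0.29 for Rpl23, -0.62 to 0.020 for Rpl3l, -0.16 to 0.66 for Rpl5, -0.13 to 0.0073 for Rplp1 and -0.034 to 0.098 for Rps19, and with the set as a block -0.64 to 0.18 for Rpl23, -0.55 to 0.059 for Rpl3l and -0.025 to 0.11 for Rps19. The cause was not tested. Dim members such as Rps3a, Rps15a and Rpl3l were near background, so their differences can understate a change.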
